A study of Mus musculus with 6 samples.

Results

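The 39 genes described here are the transcription factor genes Myc and Mycn and 37 nucleolar genes of ribosome biogenesis, taken as a named list. Each was read at the probe set that the probe table assigns to its symbol alone and that was brightest by the mean over the 6 arrays. All 39 had such a probe set and passed the filter on dim probe sets, among 10825 genes tested. The arrays profile LSK cells, a lineage-negative, Sca-1-positive and c-Kit-positive bone marrow fraction that holds hematopoietic stem and progenitor cells, from 3 adult mice of mixed 129-B6 background (278, 279 and 281). Every mouse was Mx1Cre;Ergkd/+;R26Y, so all cells started with 1 Erg knockdown allele, the interferon-inducible Cre and a Cre-dependent yellow fluorescent protein (YFP) reporter. YFP-negative cells are labelled Erg-knockdown, with about 40% less Erg, and YFP-positive cells of the same animal are labelled Erg-restored. Because cells were divided by YFP alone, effects of Erg dose, of Cre itself and of which cells Cre missed cannot be told apart. Erg itself averaged 2810 ± 140 in knockdown-labelled cells and 2764 ± 124 in restored-labelled cells (intensity, SD, n = 3 each). The difference was 0.024 ± 0.079 on the log2 scale. Its 95% interval runs from -0.20 to 0.25, so the labelled reduction was not seen at this probe set and both names stand for the labels only.

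MYC and MYCN are basic helix-loop-helix proteins that bind DNA as partners of MAX, most often at the E-box hexamer CACGTG, and drive genes of growth and ribosome production. Ribosomes begin in the nucleolus, where RNA polymerase I copies the ribosomal DNA, small nucleolar ribonucleoproteins (snoRNPs) guide the modification of the ribosomal RNA, and assembly factors cut, fold and export the subunits. In blood stem cells MYC is known for its part in the balance between self-renewal and differentiation, and the rate of protein synthesis is held low in quiescent stem cells.

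The E-box itself is shown first, since it is the sequence through which MYC is known to act on nucleolar genes. RefSeq promoter windows of GRCm38.p6 were at hand for 32 of the 39 genes. Each spans 250 bases before to 50 bases after a transcript start, which for Grwd1 and Wdr43 lies inside the annotated gene. Motif positions below count from that transcript start. CACGTG, which reads the same on both strands, lay in the windows of 8 of these 32 (25.0%). It lay in 7.15% of all 32851 windows and in the windows of 1063 of the 8843 tested genes that had one. The single-base variant CACGCG, searched on both strands and so also as CGCGTG, lay in the windows of 11 of the 32 (34.4%), in 9.27% of all windows and for 20.3% of the tested genes. The motif with up to 12 bases on each side is given for the 8 genes, with the E-box in capitals.
Nop2, chr6:125131811-125131840, plus strand, motif 60 bases before the start: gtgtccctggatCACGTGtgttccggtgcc
Imp4, chr1:34439696-34439725, plus strand, motif 121 bases before the start: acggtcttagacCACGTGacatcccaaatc
Pes1, chr11:3963965-3963994, plus strand, motif from base 3 of the transcript: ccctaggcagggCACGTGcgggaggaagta
Wdr43, chr17:71616220-71616249, plus strand, motif from base 18: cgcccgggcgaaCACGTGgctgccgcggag
Tsr1, chr11:74898092-74898121, plus strand, motif from base 25: tcacttggtgcaCACGTGgactgcagaatg
Grwd1, chr7:45830740-45830767, minus strand, motif from base 35: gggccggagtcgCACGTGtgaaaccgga
Utp20, chr10:88826765-88826789, minus strand, motif from base 38: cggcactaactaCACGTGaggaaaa
Mybbp1a, chr11:72441355-72441376, plus strand, motif from base 41: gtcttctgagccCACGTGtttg
These matches describe letters in a window, and binding was not measured.

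Each difference is given as log2(intensity + 16) in knockdown-labelled cells minus that in restored-labelled cells. Errors of fitted differences are standard errors from limma with the mouse as a block. Single-mouse differences rest on 1 array a side and have no replicate check. Array means lay between 1034 and 1075 and medians between 135 and 157. Precision is limited by the 3 arrays per group. The restored-labelled array of mouse 279 stood apart, with a log2 ratio of 3′ over 5′ control probe sets of 0.707, against 0.471 to 0.540 on the other 5. Medians and leading genes are therefore also given from the 5 other arrays, where the difference is of group means with no mouse term. Over all genes tested that difference had a median of 0.025, and 40.7% of the genes were lower. Each 5-array value below is to be read beside these. All 10 named members of the LSK and stem cell marker list, Kit, Cd34 and Flt3 among them, were above the filter, and Ly6a, which encodes Sca-1, was not analysed here. Of the other marker lists, 9 of 9 named neutrophil genes, 7 of 7 megakaryocyte genes, 5 of 7 monocyte and macrophage genes, 5 of 8 B and plasma cell genes, 4 of 7 erythroid genes and 3 of 6 T cell genes were above the filter. Among their defining genes, Cd79b, Jchain, Cd3e, Csf1r and Klf1 were above it, while Cd79a, Ms4a1, Cd3d, Cd3g, Cd4, C1qa, Alas2 and Slc4a1 were below it. Across genes, distances of each array from its group mean correlated at 0.42 for knockdown-labelled 281 with restored-labelled 279 and at 0.37 for knockdown-labelled 279 with restored-labelled 281, but at -0.18 within mouse 279 and -0.31 within mouse 281. Whether samples of mice 279 and 281 were exchanged was not tested, and single-mouse differences of these animals follow the labels.

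Myc and Mycn were not called different, and both were lowest in the restored-labelled cells of mouse 279. Myc read 1410, 1028 and 1089 in the knockdown-labelled cells of mice 278, 279 and 281, against 1423, 764 and 1073 in the restored-labelled cells. The groups overlapped, and the readings of a mouse lay far apart in mouse 279 but not in mice 278 or 281. Its log2 differences in the 3 mice were -0.013, 0.42 and 0.022, and the fit gave 0.14 ± 0.12 (adjusted p = 0.790, limma, 95% interval -0.19 to 0.48). With the restored-labelled array of mouse 279 left out, and so no mouse term, the difference was -0.085. Mycn read 1394, 1185 and 1478 in knockdown-labelled cells, against 1174, 980 and 1527 in restored-labelled cells. The knockdown-labelled reading was the higher one in mice 278 and 279 and slightly the lower one in mouse 281, with differences of 0.24, 0.27 and -0.047 and a fitted difference of 0.16 ± 0.10 (adjusted p = 0.771, limma). Mycn differed by 0.0077 in the 5 other arrays. A dimmer Mycn probe set read 465, 377 and 516 in knockdown-labelled cells, against 368, 345 and 402 in restored-labelled cells, which was higher in all 3 mice by 0.26 ± 0.12 in a fit of every probe set (adjusted p = 0.852, limma). The third Mycn probe set averaged 52.1 over the 6 arrays, below the filter intensity of 149. Myc had 1 probe set.

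**Figure D1:**
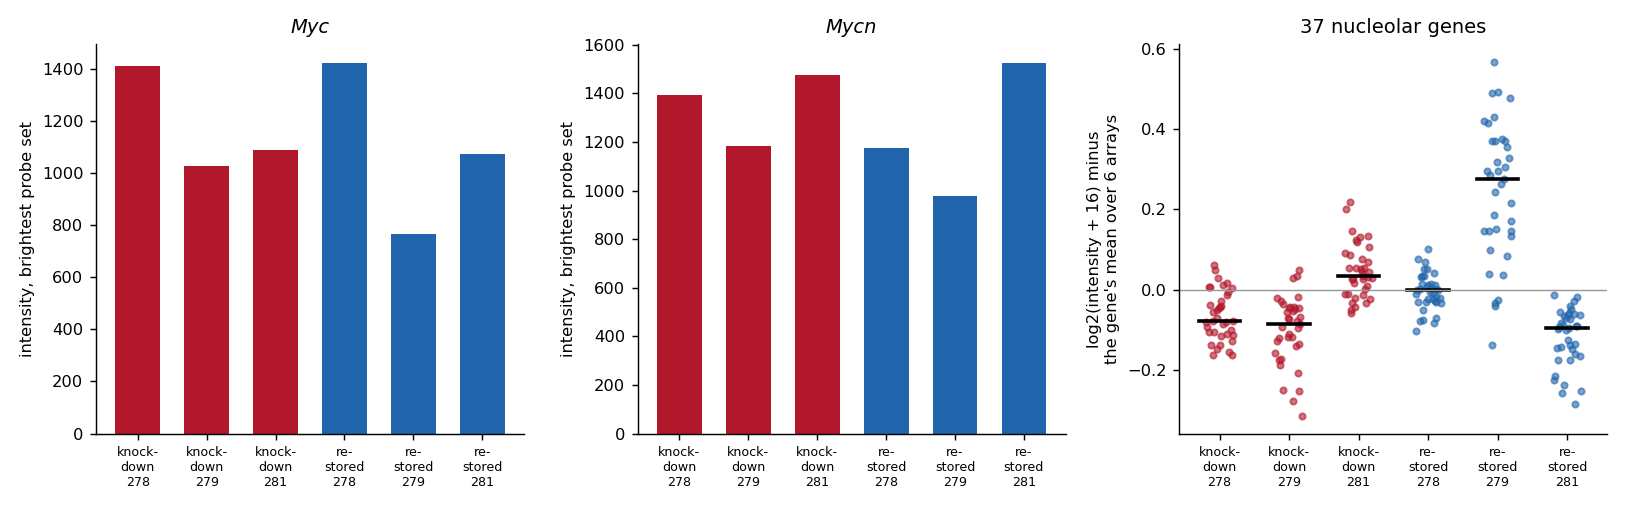
Intensity of Myc and of Mycn (bars, from 0) and the deviation of 37 nucleolar genes from their own mean over the 6 arrays on the log2(intensity + 16) scale (points, with the median as a line), for knockdown-labelled cells (red) and restored-labelled cells (blue) of mice 278, 279 and 281. On the restored-labelled array of mouse 279 Myc (764) and Mycn (980) are at their lowest and the nucleolar median (0.28) is at its highest.

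The nucleolar genes went the other way from Myc on that array. Taking each of the 37 as its deviation from its own mean over the 6 arrays, their median was -0.078, -0.085 and 0.035 in the knockdown-labelled cells of mice 278, 279 and 281, against -0.0019, 0.28 and -0.096 in the restored-labelled cells. The medians of the groups overlapped, and the highest and the lowest array were both restored-labelled. The restored-labelled array of mouse 279 was the highest of the 6 for 32 of the 37 nucleolar genes, where it was the highest for 38.9% of all genes tested. The restored-labelled array of mouse 281 lay below the gene's own mean for all 37 and was the lowest of the 6 for 17. It was the lowest for 1906 of the 10825 genes tested, whose median deviation on it was -0.030. Myc deviated by -0.53 and Mycn by -0.37 on the array where the nucleolar median was 0.28, while on the restored-labelled array of mouse 281 Mycn stood at its highest (0.26) and Myc at -0.045. On the restored-labelled array of mouse 278 Myc stood at its highest (0.36) with the nucleolar median near 0. The 6 arrays come from 3 animals, so no correlation is given.

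Within an animal most of the 39 genes had the same sign, and that sign differed between animals. In mouse 278, 32 of 39 were lower in knockdown-labelled cells (41.3% of all genes tested), with a median of -0.045. In mouse 279, 33 of 39 were lower (55.1% of all genes tested), with a median of -0.35. In mouse 281, 3 of 39 were lower (42.1% of all genes tested) and 36 were higher, with a median of 0.13. Over all genes tested the medians in these mice were 0.031, -0.043 and 0.032. Centring each array on its median left mouse 281 with 12 lower and 27 higher, where 63.3% of all genes tested were lower. Quantile normalization left it with 5 lower and 34 higher, where 51.5% of all genes tested were lower. Relative to the median over all genes, the median of the 39 in mouse 281 stood at 0.099 as deposited and with centring. With quantile normalization it stood at 0.10.

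**Figure D2:**
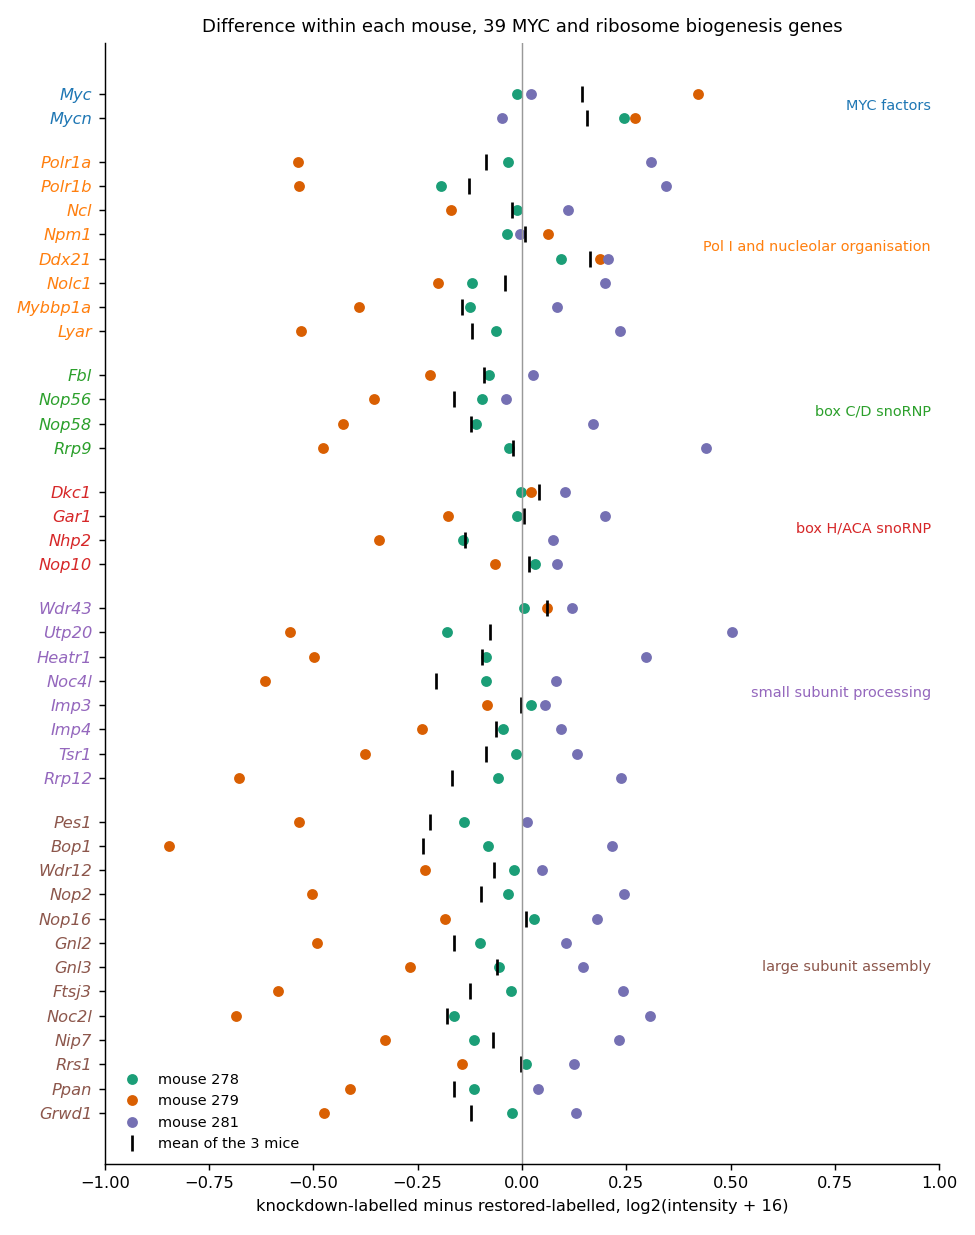
Difference (log2(intensity + 16), knockdown-labelled minus restored-labelled) for each of the 39 genes, by role, with 1 point per mouse and a tick for the mean of the 3 mice. Points of mouse 279 run from -0.84 (Bop1) to 0.42 (Myc) and lie left of 0 for 33 genes, while points of mouse 281 lie right of 0 for 36.

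Over the 3 mice, 30 of the 39 genes were lower and 9 higher, where 49.9% of all genes tested were lower. None of the 39 passed an adjusted p of 0.05 in limma with Benjamini-Hochberg adjustment (adjusted p between 0.771 and 0.995). Across all genes 0.0% passed, and at unadjusted p below 0.05 there were 0 of the 39 genes and 5.82% of all genes tested. The median difference of the 39 was -0.086, against 0.00039 over all genes tested. Both the count and the sign rest on mouse 279. Without it 8 of 39 were lower and the median was 0.057, against 39.9% and 0.029 over all genes tested. Without its restored-labelled array (5 arrays, no mouse term) 16 of 39 were lower and the median was 0.0082. Over all genes tested these were 40.7% and 0.025, so the count of the 39 lay near that share. Leaving out mouse 278 gave 31 lower and a median of -0.094, and leaving out mouse 281 gave 33 lower and -0.22. Nop56 was lower in all 3 mice, as were 12.4% of all genes tested, and Ddx21 and Wdr43 were higher in all 3, as were 19.9% of all genes tested. For these 3 genes the groups did not overlap, which held on the lower side for 5.11% and on the higher side for 10.1% of all genes tested.

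Among genes of RNA polymerase I and general nucleolar proteins, the polymerase subunits were far apart in mouse 279. Over the 8 genes of this role, 4 were lower in the 5 other arrays, and the median there was 0.018. Polr1a, the largest subunit and part of the catalytic core, read 1705, 1820 and 1944 in the knockdown-labelled cells of mice 278, 279 and 281, against 1745, 2647 and 1567 in restored-labelled cells. Polr1b, the other core subunit, read 1455, 1501 and 1740 in knockdown-labelled cells, against 1667, 2181 and 1366 in restored-labelled cells. For both genes the restored-labelled cells held the highest and the lowest reading, and the fitted differences were -0.087 ± 0.19 and -0.13 ± 0.20, which became 0.14 and 0.048 from the 5 other arrays. Ncl and Npm1, the abundant RNA-binding proteins nucleolin and nucleophosmin, had narrow ranges. Npm1 read 11521, 11721 and 11304 in knockdown-labelled cells, against 11821, 11232 and 11350 in restored-labelled cells, a difference of 0.0062 ± 0.072. Ddx21, an RNA helicase tied to polymerase I transcription and RNA processing, stood on the higher side, with 8725, 8644 and 9164 in knockdown-labelled cells, against 8171, 7589 and 7943 in restored-labelled cells (0.16 ± 0.073, adjusted p = 0.771, limma), and it gave 0.13 from the 5 other arrays. Its dimmer probe set gave -0.018 ± 0.14, with -0.25 in mouse 279. Nolc1, a chaperone of snoRNPs, Mybbp1a, a MYB-binding nucleolar protein, and Lyar, a nucleolar zinc finger protein, gave -0.041, -0.14 and -0.12 and were lower in mice 278 and 279 and higher in mouse 281.

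The box C/D snoRNP proteins, which carry 2′-O-methylation of ribosomal RNA, had 4 of 4 genes lower, with a median of -0.11 over the 3 mice and -0.39 in mouse 279. From the 5 other arrays the median was -0.025, with 3 of 4 lower. Nop56, a core scaffold of the particle, read 7990, 7819 and 8150 in knockdown-labelled cells, against 8536, 9995 and 8365 in restored-labelled cells. Every knockdown-labelled reading lay below every restored-labelled one, with a difference of -0.16 ± 0.097 (adjusted p = 0.771, limma), and the other Nop56 probe set gave -0.16 ± 0.13. The 5 other arrays gave -0.081. Fbl, the methyltransferase fibrillarin, differed by -0.091 ± 0.085, Nop58, the other scaffold, by -0.12 ± 0.14, and Rrp9, which joins the U3 particle, by -0.022 ± 0.20. Rrp9 gave -0.48 in mouse 279 and 0.44 in mouse 281, which nearly cancel.

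The box H/ACA proteins carry pseudouridylation and also belong to telomerase. Their median was 0.010 over the 3 mice and -0.12 in mouse 279, with 1 of 4 lower, and 0.034 when the restored-labelled array of 279 was left out. Dkc1, the pseudouridine synthase dyskerin, read 6031, 5757 and 5961 in knockdown-labelled cells, against 6043, 5668 and 5552 in restored-labelled cells, which overlap. Gar1 and Nop10 gave 0.0037 ± 0.10 and 0.016 ± 0.075. Nhp2 was the lower one, with 5205, 5303 and 5526 in knockdown-labelled cells, against 5741, 6732 and 5250 in restored-labelled cells (-0.14 ± 0.11).

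Of the 8 genes of small subunit processing 7 were lower, with a median of -0.082 over the 3 mice and -0.44 in mouse 279. Only 1 of 8 was lower in the 5 other arrays, and their median there was 0.031. Utp20, a large scaffold protein, read 2289, 2224 and 2953 in knockdown-labelled cells, against 2596, 3280 and 2077 in restored-labelled cells. This gave -0.56 in mouse 279 and 0.50 in mouse 281, and a fitted difference of -0.078 ± 0.23. Noc4l, a small subunit assembly factor, read 3158, 3218 and 3513 in knockdown-labelled cells, against 3354, 4937 and 3321 in restored-labelled cells (-0.21 ± 0.16), and its 3 other probe sets gave -0.14 to -0.27. Rrp12, an export factor, differed by -0.17 ± 0.20, Heatr1, which joins early processing to polymerase I, by -0.096 ± 0.18, and Tsr1, a late maturation factor, by -0.086 ± 0.13. Imp3 and Imp4, which hold the U3 RNA on the precursor, differed by -0.0020 ± 0.075 and -0.063 ± 0.097. Wdr43 was the exception, with 5944, 6061 and 6145 in knockdown-labelled cells, against 5929, 5816 and 5657 in restored-labelled cells (0.061 ± 0.072). Its dimmer probe set gave -0.18 ± 0.14.

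In large subunit assembly 12 of 13 genes were lower over the 3 mice and 13 of 13 in mouse 279, where the median of -0.47 was the lowest of the roles. In mouse 281 all 13 were higher, with a median of 0.15. In the 5 other arrays the median was 0.0082, and 6 of 13 were lower. Pes1, Bop1 and Wdr12 form the PeBoW complex, which is needed for the large subunit. Bop1 read 1943, 1694 and 2057 in knockdown-labelled cells, against 2059, 3055 and 1769 in restored-labelled cells, a difference of -0.24 ± 0.24 (adjusted p = 0.806, limma) and -0.013 from the 5 other arrays. Pes1 read 2419, 2371 and 2568 in knockdown-labelled cells, against 2667, 3440 and 2547 in restored-labelled cells (-0.22 ± 0.13). Wdr12 gave -0.068 ± 0.092. Among the nucleolar GTPases, Gnl2 differed by -0.16 ± 0.14 and Gnl3, which encodes nucleostemin, by -0.060 ± 0.11. The methyltransferase genes Nop2 and Ftsj3 gave -0.097 ± 0.17 and -0.12 ± 0.19. Noc2l, an assembly factor that also binds histones, gave -0.69 in mouse 279 and 0.31 in mouse 281. The assembly factor genes Ppan, Nip7, Nop16 and Rrs1 and the histone chaperone gene Grwd1 gave -0.16, -0.070, 0.0087, -0.0035 and -0.12. At the brightest probe sets Nop16 was thus the single gene of this role on the higher side, by less than its standard error of 0.10. Its dimmer probe set gave 0.25 ± 0.13, with 0.13, 0.14 and 0.48 in mice 278, 279 and 281. With a gene's probe sets averaged, Nip7 and Rrs1 also lay on the higher side, at 0.0060 and 0.024.

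The spread of a gene across the arrays went with its brightness. The 18 brighter nucleolar genes, with means from 4478 to 11491, had a median SD of 6.61% of their mean over the 6 arrays and a median difference of -0.19 in mouse 279. The 19 dimmer ones, with means from 1636 to 4474, had 16.3% and -0.53. In mouse 281 the medians were 0.11 and 0.23. Within Polr1a and Ncl the probe sets also differed: the brightest Polr1a probe set gave -0.54 in mouse 279 and dimmer ones -0.71, -0.99 and -1.01, and the brightest Ncl probe set gave -0.17 and the others -0.55, -0.011, -0.049 and -0.15, so the size followed brightness for Polr1a but not for Ncl. Of the 39 genes 26 had further probe sets above the filter, 38 in all. Of these 38, 28 had the sign of the brightest one, 33 were lower in mouse 279 and 5 were lower in mouse 281. Averaging a gene's probe sets gave 29 of 39 lower, and in mouse 281 2 of 39 lower.

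The E-box windows were then set beside the differences. The 8 genes with CACGTG in the window had a median of -0.092 over the 3 mice and -0.43 in mouse 279, with 7 lower. The 24 without it had -0.069 and -0.34, with 18 lower. Without the restored-labelled array of mouse 279 the medians were 0.035 with 2 lower and 0.023 with 9 lower. No difference between these sets was tested. Pes1 and Wdr43, which both carry the motif just after the start site in the sequences above, lay on opposite sides at -0.22 and 0.061.

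Other genes of the pathway also had their lowest median in mouse 279 and their highest in mouse 281. Of 88 tested genes of polymerase I, snoRNPs and subunit assembly outside the 39, 61 were lower, with 0 at adjusted p below 0.05 and 0 at unadjusted p below 0.05 in limma, and a median of -0.050. Their medians in mice 278, 279 and 281 were -0.038, -0.24 and 0.086, with 70 of 88 lower in mouse 279 and 15 of 88 lower in mouse 281. Taken over the 5 other arrays their median was 0.027, and 32 of 88 were lower. Of 21 tested MYC targets outside the nucleolus, 12 were lower, with 0 at adjusted and 0 at unadjusted p below 0.05 in limma and a median of -0.023. Their medians in the mice were -0.011, -0.13 and 0.076, and 0.040 from the 5 other arrays. Within this list Cdk4, the G1 kinase, gave -0.12 ± 0.093 and Srm, the spermidine synthase, -0.13 ± 0.11. Within the polymerase I list, Taf1a, a promoter selectivity factor subunit, gave -0.31 ± 0.12, and Ttf1, the transcription terminator, -0.17 ± 0.069. Each was lower in all 3 mice (adjusted p = 0.771, limma), as were 12.4% of all genes tested. Of the assembly lists, Pelp1, part of a large subunit maturation complex, gave -0.32 ± 0.12 and Noc3l 0.26 ± 0.11, while Nol10 and Utp6 of the small subunit gave 0.22 ± 0.094 and 0.13 ± 0.071. The snoRNP assembly genes Tgs1 and Naf1 gave 0.13 ± 0.072 and 0.080 ± 0.071. None of these passed.

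**Figure D3:**
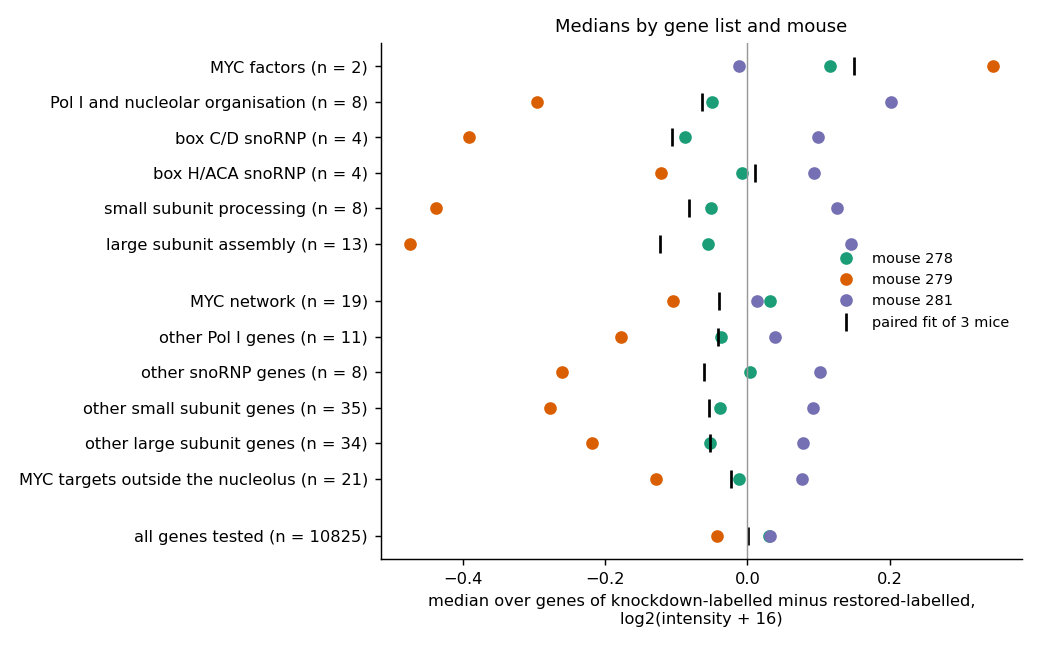
Median over the genes of each list of the difference (log2(intensity + 16), knockdown-labelled minus restored-labelled), with 1 point per mouse and a tick for the paired fit. The upper block holds the 39 genes by role, the lower block other genes of the pathway, and the bottom row all genes tested. Mouse 279 lies left of mouse 281 in every gene list drawn but the MYC factors, with medians from -0.47 for large subunit assembly to -0.10 for the MYC network.

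The network around MYC had genes on both sides. Of 19 tested partners, antagonists and regulators, 12 were lower and 7 higher, with a median of -0.039 and 2 at unadjusted p below 0.05 (10.5%, against 5.82% of all genes tested). Zbtb17, which encodes the MYC partner MIZ1, read 570, 524 and 594 in knockdown-labelled cells, against 650, 806 and 710 in restored-labelled cells. Fbxw7, the ubiquitin ligase that marks MYC for degradation, read 2179, 2030 and 2330 in knockdown-labelled cells, against 1929, 1336 and 1953 in restored-labelled cells. Neither set of readings overlapped between the groups, and for both the restored-labelled array of mouse 279 stood farthest out. Such non-overlap held on the lower side for 5.11% and on the higher side for 10.1% of all genes tested. It also held for other genes of this list. Zbtb17 and Fbxw7 are named because they had the 2 smallest unadjusted p of the list, so their non-overlap is partly built in. Zbtb17 differed by -0.35 ± 0.12 and Fbxw7 by 0.34 ± 0.12 (adjusted p = 0.771 for both, limma). From the 5 other arrays these were -0.27 and 0.16, and the median of the list was 0.026.

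Several other measures were at their highest or lowest on the restored-labelled array of mouse 279. They did not follow the nucleolar genes on every array. In the knockdown-labelled cells of mice 278, 279 and 281 the summed intensity of 26 cell cycle genes was 133767, 138249 and 140018. In restored-labelled cells it was 137970, 153569 and 135361, so it was highest where the nucleolar genes were highest. Median differences of these cell cycle genes in mice 278, 279 and 281 were -0.060, -0.21 and 0.055. Within each mouse that median had the same sign as the median of the nucleolar genes. The summed intensity of 9 neutrophil markers was 24278, 49847 and 28884 in knockdown-labelled cells, against 23745, 16742 and 44912 in restored-labelled cells. It was lowest on the restored-labelled array of mouse 279, and no marker of this list was listed at 0. Within each of the 3 mice the sum stood in the opposite order to the nucleolar median, by little in mouse 278. In mouse 278 the median difference of the 9 markers was -0.046, with 5 lower and 4 higher. The summed intensity of 7 megakaryocyte genes was 8817, 8806 and 8220 in knockdown-labelled cells, against 9184, 12399 and 11564 in restored-labelled cells. That sum was high on both restored-labelled arrays of mice 279 and 281, which were the highest and the lowest for the nucleolar genes. All 7 genes were lower in the fit of the 3 mice. Lower in all 3 mice were 6 of the 7, against 12.4% of all genes tested. At unadjusted p below 0.05 in limma there were 4 of the 7, against 5.82% of all genes tested, and 0 passed after adjustment. The sums of 2 further lists were higher on every knockdown-labelled array. The LSK and stem cell sum was 49634 to 52424, against 47509 to 47735 in restored-labelled cells. For B and plasma cell genes it was 15912.5 to 20404.5, against 13449 to 14920. Of the 5 tested genes of that list 3 (Mzb1, Sdc1 and Jchain) were higher in the fit and 2 were lower. Cd79b was among the lower ones, with 2580, 2321 and 2327 in knockdown-labelled cells, against 2709, 2455 and 2632 in restored-labelled cells. Sums of the T cell, erythroid, and monocyte and macrophage lists overlapped between the groups. All 5 tested monocyte and macrophage genes were nevertheless lower in the fit, with a median of -0.38, where 49.9% of all genes tested were lower. In mouse 279 only 2 of the 5 were lower. At unadjusted p below 0.05 in limma there were 2 of the 5, against 5.82% of all genes tested, and 0 passed after adjustment. The 3′ over 5′ ratio was also highest on the restored-labelled array of mouse 279. It came next, at 0.540, on the knockdown-labelled array of mouse 279, where the nucleolar median was -0.085. The part of cell cycle, of RNA of the cell types in these marker lists and of RNA quality in the nucleolar shift was not tested. In sorted bulk cells, fewer cells of a kind and less RNA per cell cannot be told apart.

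**Figure D4:**
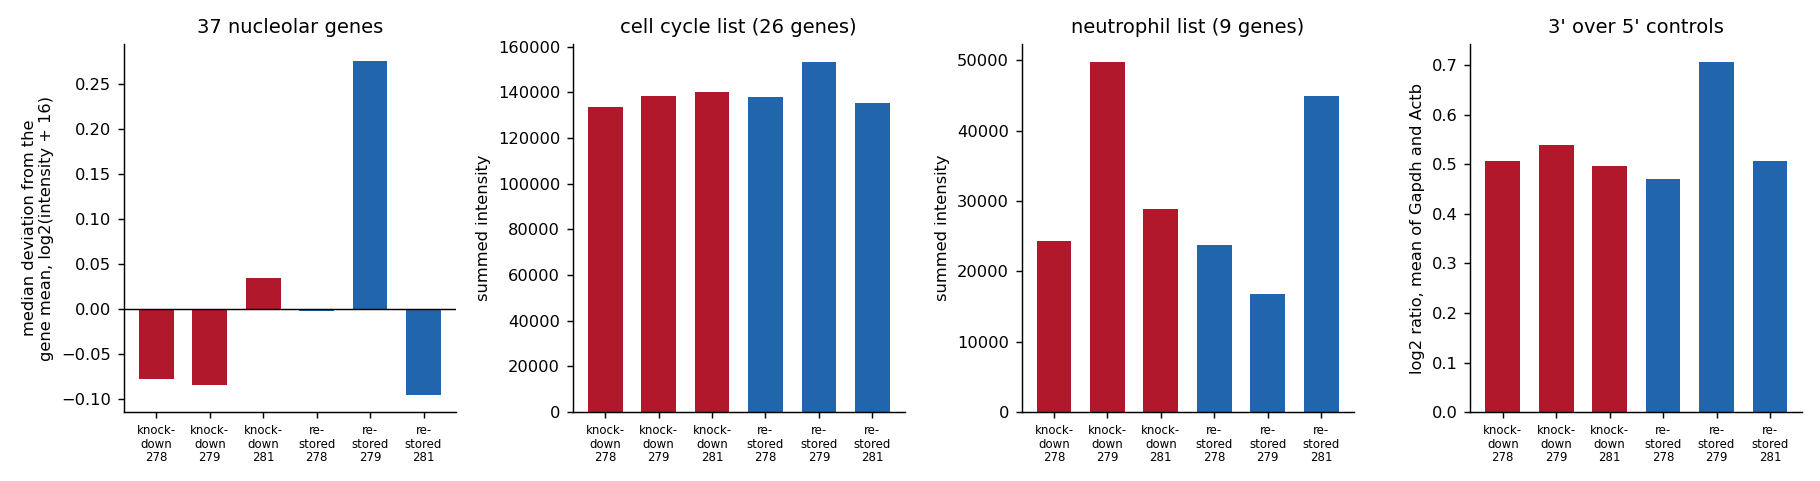
For each array, the median deviation of the 37 nucleolar genes from their own means (log2(intensity + 16) scale), the summed intensity of 26 cell cycle genes and of 9 neutrophil markers, and the log2 ratio of 3′ over 5′ control probe sets (mean of Gapdh and Actb), in knockdown-labelled (red) and restored-labelled (blue) cells. The restored-labelled array of mouse 279 is highest for the nucleolar genes, the cell cycle sum (153569) and the 3′ over 5′ ratio (0.707), and lowest for the neutrophil sum (16742).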

How the data were processed

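Per the labels' protocols, RNA of sorted LSK cells was amplified by NuGEN Ovation V2 and read on 3′ expression arrays of Affymetrix, 1 per sample. The authors deposited linear intensities for 45101 probe sets. Neither the labels nor the file header gives their summary and scaling method. An array value holds no count, so the number of arrays limits the precision.

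After 64 controls were left out, the probe table named 34945 probe sets by 1 symbol, 932 by several and 9160 not at all. Probe sets with a mean at or above the median of 149 were kept (22519), with the brightest for each of 10825 genes. Values were taken to log2(intensity + 16), which understates fold changes of dim genes, and fitted in limma 3.58.1 (R 4.3.3, lmFit then eBayes) with mouse as a block and Benjamini-Hochberg adjustment over all genes. Both populations came from the same mouse per the labels. Deviations from group means correlated at 0.45, -0.18 and -0.31 within mice 278, 279 and 281, and at 0.42 (knockdown 281 with restored 279) and 0.37 (knockdown 279 with restored 281) across mice. The labels' pairing was kept, and an exchange of samples was not tested. The fit was tested on simulated data. Figures used matplotlib 3.10.9.

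The members and lists were chosen with earlier results of these data known. The genes named are the 39, every Myc and Mycn probe set, Erg and the 2 genes of each pathway list with the smallest unadjusted p. Markers named as present or below the filter, and other probe sets, were chosen after their values were seen. The 15 alternatives changed the block, scaling, filter, probe set rule, moderation, added value and arrays used. Settings for single-mouse counts, and list medians without 1 array, were added after seeing the data.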

Additional observations from a re-analysis of the deposited data

How the results depend on the processing

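No gene passed under any of the 15 alternatives (limma, 0 called in each), and none of the 39 did, with the smallest adjusted p of a member at 0.518, with centred arrays. At unadjusted p below 0.05 there were 266 to 1083 genes, the highest with no filter, and 0 or 1 of the 39. The count of lower genes among the 39 was 29 to 36 and their median -0.22 to -0.063 under the 13 alternatives that kept the restored-labelled array of mouse 279. Leaving out a mouse gave 8 to 33 lower, and medians from -0.22 to 0.057. With 5 arrays (the restored-labelled one of mouse 279 left out) and no replicate block, 16 were lower, the median was 0.0082 and Myc stood at -0.085. Over all genes tested 40.7% were lower there, with a median of 0.025. With no replicate block and all 6 arrays, 30 were lower as in the paired fit, and 637 genes against 630 reached unadjusted p below 0.05. The share higher of those 630 was 67.8%, but 36.3% after quantile normalization and 15.2% with centred arrays, where the median over all genes was -0.11 instead of 0.00039. Relative to it the 39 genes stood at -0.087 in both. In mouse 281, 12 of 39 were lower with centred arrays and 5 after quantile normalization, against 3. Over all genes tested these shares were 63.3%, 51.5% and 42.1%. Between 0 and 24 of the 39 genes changed sign in an alternative, none of them called. The cause of these changes was not tested, beyond the array left out. The fit has 2 residual degrees of freedom per gene before moderation.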
